A study of Homo sapiens with 2 samples.

Results

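Ribosome biogenesis and RNA polymerase I genes were examined in NB4 cells, a human acute promyelocytic leukemia (APL) cell line that carries PML/RARα, after knockdown of the lncRNA CRNDE. The members were chosen by gene symbol: symbols of the NOP, UTP, NOL, RRP and NOC series, POLR1A to POLR1E, and a list of named genes from FBL to UBTF. By this rule 62 of the 11619 listed genes were members, and all 62 were listed for both libraries, RRS1 at 0 FPKM in sh-Control. NOL3, which encodes an inhibitor of apoptosis, and NOL4L match the rule by their symbols alone, and the other 60 members are nucleolar, ribosome assembly or RNA polymerase I genes.

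Both groups were NB4 cells infected with a lentiviral vector and kept for 3 days. The sh-CRNDE cells received an shRNA against CRNDE, and the sh-Control cells a non-targeting shRNA. Which of the designed CRNDE shRNAs the sequenced cells carried is not stated in the sources used here. Each group had 1 library. Differences thus have no replicate error, and p-values are not given. An effect of the knockdown and a chance difference of these libraries cannot be told apart.

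CRNDE itself was at 5.92 and 1.85 FPKM. FPKM is a count of fragments, divided by transcript length and by the mapped fragments of the library, and wherever a pair of FPKM values is given the sh-Control library comes first. The change of a gene is the difference of log2(FPKM + 1), knockdown less control, which understates the change of lowly expressed genes. That of CRNDE was -1.28. Genes past 1.5-fold on this scale, that is past 0.585, are said to have risen or fallen, and for all other genes the values alone are given. FPKM values keep no read counts, so the depth is unknown. All 6 markers of NB4 cells that were looked up, among them MPO and RARA, were listed at 3.28 FPKM or more in both libraries. Their summed levels were 1209 and 781.4 FPKM, of which MPO made up 1135 and 737.6 FPKM. MPO (-0.62) and AZU1 (-1.09) fell. SPI1 (-0.58), PML (-0.40), CD33 (-0.20) and RARA (-0.19) were lower in sh-CRNDE, within 1.5-fold. Of 10 markers of T, B, erythroid and epithelial cells, 4 were listed, at 4.82 FPKM or less and with sums of 7.40 and 6.60 FPKM, and CD3E, MS4A1 and HBB were not listed. In bulk RNA, fewer cells of a kind and less RNA per cell cannot be told apart.

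Ribosomes are built in the nucleolus. RNA polymerase I, with the factor UBTF on its template, transcribes the long rRNA precursor. Small nucleolar ribonucleoproteins (snoRNPs) modify that precursor, those of the box C/D class by methylation and those of the box H/ACA class by pseudouridylation, and separate sets of assembly factors then carry the small and the large subunit through cleavage, folding and export. The genes of this pathway are known for high activity in growing and malignant cells, and their promoters are known targets of MYC.

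As a set, the members were somewhat higher in sh-CRNDE, with few genes past 1.5-fold. Of the 62 members, 39 were higher in sh-CRNDE and 23 lower, which is 62.9% higher against 49.2% of all listed genes. The median change was 0.14, against -0.01 over all genes, and from the 25th to the 75th percentile the members ran from -0.07 to 0.38, against -0.26 to 0.23. The members past 1.5-fold were UTP3, NOP10, RRS1, RRP1B and EBNA1BP2, which rose, and EMG1, which fell. The 5 that rose were 8.06% of the members, near the 8.38% of all genes that did. The single gene that fell was 1.61% of the members, where 8.83% of all genes fell. With a pseudocount of 0.1 in place of 1, 13.6% of all genes and 8.06% of the members rose, and 14.8% and 3.23% fell. In 32 of the 62 members the change was under 0.25 in size.

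The members were well expressed, with a median of 16.7 and 17.8 FPKM, against 3.95 and 3.89 FPKM over all genes. Among the 8773 genes that reached 1 FPKM in each library (expressed genes below), 6.67% rose and 7.45% fell. Of the 60 members that passed this filter, 4 rose and 1 fell. Where the mean was 10 FPKM or more, the median change was 0.14 in 46 members and 0.03 in 2958 other genes, and 65.2% of the former and 53.6% of the latter were higher in sh-CRNDE. Summed over the members, FPKM was 1829 in sh-Control and 2281 in sh-CRNDE, a ratio of 1.25. This was 1.30% and 1.60% of the summed FPKM of each library without the mitochondrial rRNA gene MT-RNR2, which was listed at 0 in the control and made up 27614 of a sum of 170373 FPKM after knockdown.

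**Figure D1:**
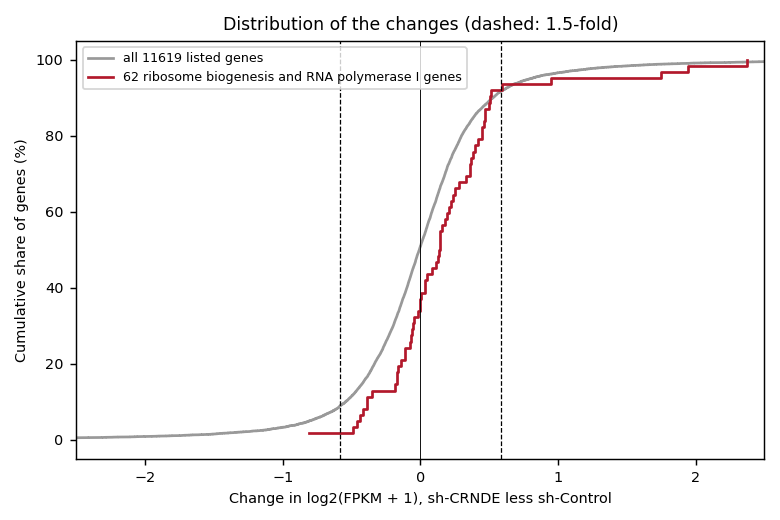
Cumulative share of genes (percent, vertical axis) by the change in log2(FPKM + 1), sh-CRNDE less sh-Control (horizontal axis), for all 11619 listed genes (grey) and the 62 members (red). Dashed lines mark 1.5-fold. The red line lies to the right of the grey line below the upper threshold, with a median of 0.14 against -0.01, and meets it there, where 8.06% of the members and 8.38% of all genes lie beyond.

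GC content moved with the change in these libraries and is therefore given beside it. Across the 8733 annotated expressed genes, Spearman's rho between GC content of the canonical transcript and the change was -0.44, and across the 62 members it was -0.48. Genes of a pair of libraries share those libraries and are not independent, so the values are a description. Among the 31 members with the lower GC content (35.1% to 48.4%), 25 were higher in sh-CRNDE and the median change was 0.28. The 4383 other expressed genes in that GC range had a median of 0.12, and 66.5% of them were higher. Among the 31 members with the higher GC content (48.5% to 65.6%), 14 were higher and the median was -0.04. In 3907 other expressed genes of that range the median was -0.15, and 30.6% were higher. In both GC ranges the members' median was above that of other expressed genes, though the members were not filtered by level. After subtraction of the GC trend, which is the running median change of genes ordered by GC content, the members' median was 0.11, against 0.01 over all genes, and 45 of the 62 were above 0, against 50.7% of all genes.

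**Figure D2:**
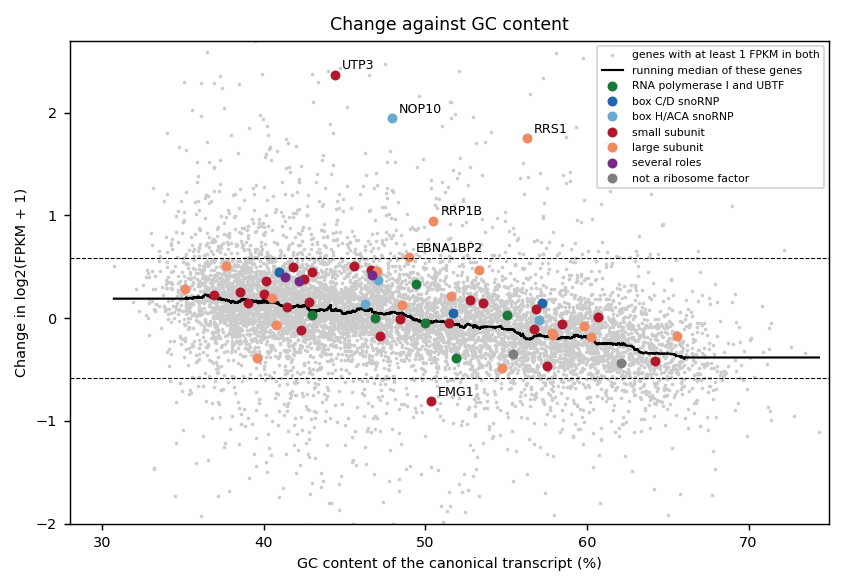
Change in log2(FPKM + 1) (vertical axis) against the GC content of the canonical transcript in percent (horizontal axis). Grey points are expressed genes, the black line is their running median, and coloured points are the 62 members by role. The line falls from left to right, and UTP3 (2.37), NOP10 (1.94), RRS1 and RRP1B (0.95) lie far above it and EMG1 (-0.81) far below it. RRS1 is listed at 0 in sh-Control, so its height is set by the added 1.

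A feature that the rule did not use, and that was more frequent among the members than among other genes, is a motif in the promoter. RefSeq promoter windows of 300 bases (250 before and 50 after the first listed start of a gene, GRCh38.p14) were matched by symbol for 54 members. The E-box CACGTG, the sequence that MYC with MAX is known to bind, was found in 19 of the 54 windows. This was 35.2%, against 11.1% of 6597 windows of expressed genes and 7.43% of 27305 windows of all genes. In 16 of the 19 member windows an E-box lay within 50 bases of the start, against 309 of 733 windows with an E-box among the expressed genes. The ETS motif CCGGAAGT was found in 16.7% of member windows and 10.9% of windows of expressed genes, the palindrome CTCGCGAG in 9.26% and 2.52%, and the YY1 motif AAGATGGC in 5.56% and 6.97%. Both strands were searched, and none of the 39 matches in member windows overlapped another.

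The windows of 5 members whose changes the results below turn on are shown, in lower case with each of these motifs in capitals, 5′ to 3′ on the strand of the gene. NOP10 (chr15:34343087-34343386, minus strand) and UTP3 (chr4:70688282-70688581, plus strand) rose most among members above 0 in both libraries. EMG1 (chr12:6970663-6970962, plus strand) fell, and UTP18 (chr17:51260296-51260595, plus strand) was the member just short of rising. NOP14 (chr4:2963357-2963656, minus strand) had a change near 0.
NOP10: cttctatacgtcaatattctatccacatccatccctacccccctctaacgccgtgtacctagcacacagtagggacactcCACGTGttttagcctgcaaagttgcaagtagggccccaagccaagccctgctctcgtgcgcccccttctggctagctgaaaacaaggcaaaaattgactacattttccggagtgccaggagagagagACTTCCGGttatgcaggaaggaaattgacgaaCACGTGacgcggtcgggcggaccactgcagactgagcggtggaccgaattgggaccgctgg
UTP3: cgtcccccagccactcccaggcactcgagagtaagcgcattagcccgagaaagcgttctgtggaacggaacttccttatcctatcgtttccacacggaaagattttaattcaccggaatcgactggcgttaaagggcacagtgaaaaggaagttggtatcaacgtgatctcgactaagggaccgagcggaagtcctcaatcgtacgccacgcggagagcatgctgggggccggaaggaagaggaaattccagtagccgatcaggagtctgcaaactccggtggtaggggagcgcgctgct
EMG1: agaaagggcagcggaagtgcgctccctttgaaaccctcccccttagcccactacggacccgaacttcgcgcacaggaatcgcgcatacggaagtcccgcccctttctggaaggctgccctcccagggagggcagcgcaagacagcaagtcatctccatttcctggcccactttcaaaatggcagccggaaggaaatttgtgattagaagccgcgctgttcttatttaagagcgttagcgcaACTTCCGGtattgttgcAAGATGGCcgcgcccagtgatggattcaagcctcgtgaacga
UTP18: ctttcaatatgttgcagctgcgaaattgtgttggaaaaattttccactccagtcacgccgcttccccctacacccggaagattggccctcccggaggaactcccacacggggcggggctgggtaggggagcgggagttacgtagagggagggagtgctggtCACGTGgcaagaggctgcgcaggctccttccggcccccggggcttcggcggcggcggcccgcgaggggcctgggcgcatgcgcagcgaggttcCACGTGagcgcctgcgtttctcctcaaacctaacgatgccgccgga
NOP14: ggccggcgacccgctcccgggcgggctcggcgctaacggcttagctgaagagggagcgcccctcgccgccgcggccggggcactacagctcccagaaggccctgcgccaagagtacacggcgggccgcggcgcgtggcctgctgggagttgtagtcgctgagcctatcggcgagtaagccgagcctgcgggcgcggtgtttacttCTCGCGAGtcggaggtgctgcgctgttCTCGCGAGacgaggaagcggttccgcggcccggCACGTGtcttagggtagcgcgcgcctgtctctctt

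The NOP10 window holds an ETS motif between a pair of E-boxes, the UTP18 window a pair of E-boxes, and the NOP14 window a pair of palindromes followed by an E-box. The EMG1 window holds an ETS and a YY1 motif, and none of these letters were found in the UTP3 window. Members with and without an E-box had similar medians, among the 54 with a window. The 8 without one were BOP1, NOL10, NOP58, POLR1E, RRP12, RRP1B, RRS1 and UTP23, of which RRP1B and RRS1 rose. With an E-box, 11 members were higher in sh-CRNDE and 8 lower, with a median of 0.11, and without one the median of 35 members was 0.13. Members with an E-box included NOP10 and EBNA1BP2, which rose, and also NOP2 (-0.49), NOL6 (-0.46) and PES1 (-0.16).

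**Figure D3:**
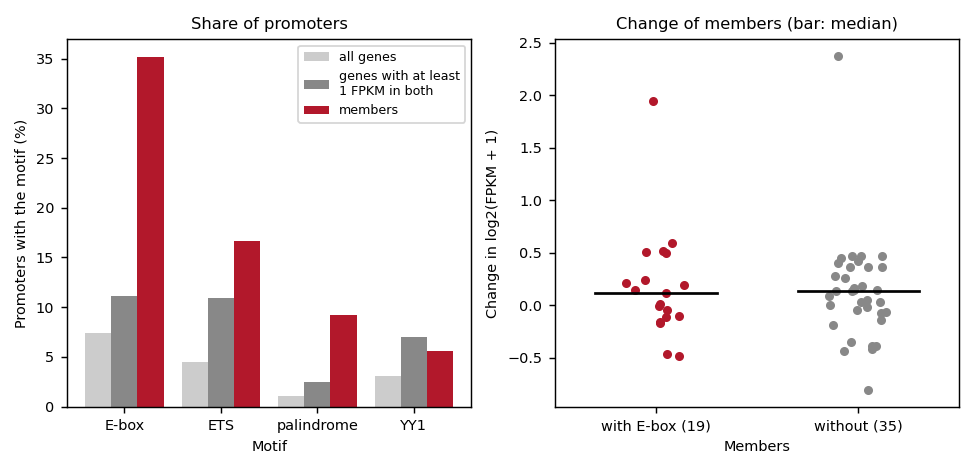
Left, share of promoter windows (percent) that hold each of 4 motifs, for all genes (27305 windows), expressed genes (6597) and members (54). Right, change in log2(FPKM + 1) of the 19 members with an E-box and the 35 without, each point a gene and the bar the median. The E-box share is 35.2% in members and 11.1% in expressed genes, while the medians on the right are 0.11 and 0.13.

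RNA polymerase I genes had no common direction, and none of the 6 rose or fell, where 8.38% of all genes rose and 8.83% fell. POLR1A, which encodes the largest subunit, was at 8.87 and 6.56 FPKM, a change of -0.39. POLR1B, the second largest catalytic subunit, was at 11.98 and 12.3 FPKM, a change of 0.03. POLR1C and POLR1D, which encode subunits shared with RNA polymerase III, were at 14.5 and 13.98 FPKM and at 14.85 and 14.82 FPKM, the former with a change of -0.05. The largest subunit and POLR1E, which encodes a subunit of the heterodimer with initiation and elongation roles, thus lay at opposite ends of the group. POLR1E was at 8.14 and 10.5 FPKM, a change of 0.33. UBTF, the activator that binds along rDNA, was at 20.0 and 20.5 FPKM, a change of 0.03. Over the 6 genes the median was 0.01 (-0.03 after subtraction of the GC trend), and their summed FPKM was 78.4 and 78.6. Of 17 further RNA polymerase I factors and shared subunits, 12 were higher in sh-CRNDE, with a median of 0.12. One of these genes, TAF1C, which encodes a subunit of the promoter selectivity factor, fell from 6.48 to 3.65 FPKM, a change of -0.68. This was 5.88% of that list, against 8.83% of all genes, and no gene of the list rose, against 8.38%.

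The 3 members of the box C/D snoRNP were higher in sh-CRNDE, and none was past 1.5-fold. SNU13, a further core protein of the particle that is no member, was at 35.4 and 31.5 FPKM, a change of -0.16. FBL, which encodes the methyltransferase fibrillarin, was at 59.8 and 66.3 FPKM, a change of 0.15. The scaffold genes NOP56 and NOP58, which are paralogs, differed. NOP56 was at 51.1 and 52.9 FPKM, a change of 0.05. NOP58 was at 48.1 and 66.0 FPKM, a change of 0.45. NOP58 was thus the lowest of the 3 genes in sh-Control and level with FBL in sh-CRNDE. Its transcript is also the poorest in GC of the 3, at 40.9% against 51.7% for NOP56, and after subtraction of the GC trend the changes were 0.31 for NOP58, 0.32 for FBL and 0.11 for NOP56.

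In the box H/ACA snoRNP a single subunit stood far from the other three. NOP10, which encodes the smallest core protein of the particle and of telomerase, rose from 29.0 to 114.4 FPKM, a change of 1.94 and a ratio of 3.95. A lower change was found in 99.0% of all genes. DKC1, which encodes the pseudouridine synthase dyskerin, was at 52.4 and 57.7 FPKM, a change of 0.14. GAR1 was at 20.8 and 27.1 FPKM, a change of 0.37, and NHP2 at 27.8 and 27.4 FPKM, a change of -0.02 (0.14 after subtraction of the GC trend). NOP10 was therefore near NHP2 in sh-Control, and above DKC1 only in sh-CRNDE. NOP10 (chr15:34339159-34343180, minus strand, GRCh38) has 2 exons and a canonical transcript of 507 bases. Among 77 multi-exon protein-coding genes averaging 10 FPKM or more, with a transcript under 600 bases, 9.09% rose and 7.79% fell, against 7.67% and 8.20% of 2791 longer ones. NOP10 had the highest change of the 77.

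NPM1, NCL and GNL3, nucleolar proteins with several roles, were each higher in sh-CRNDE, with changes between 0.36 and 0.42. NPM1, which encodes nucleophosmin, was the most abundant member, at 413.6 and 545.7 FPKM, a change of 0.40. NCL, which encodes nucleolin, was at 225.04 and 302.0 FPKM, a change of 0.42, and GNL3, which encodes nucleostemin, at 57.2 and 73.6 FPKM, a change of 0.36. None of the 3 was past 1.5-fold, and after subtraction of the GC trend the changes were 0.29, 0.36 and 0.25. NPM1 has processed copies in the genome whose reads can be confused with its own. The copy NPM1P27 was listed at 46.3 FPKM and, after knockdown, at 0. Summed over NPM1 and 3 listed copies, FPKM was 462.3 and 548.8, a change of 0.25 against 0.40 for NPM1 alone. NCLP1, the listed copy of NCL, was at 0.501 and 0.545 FPKM, far below its parent gene.

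**Figure D4:**
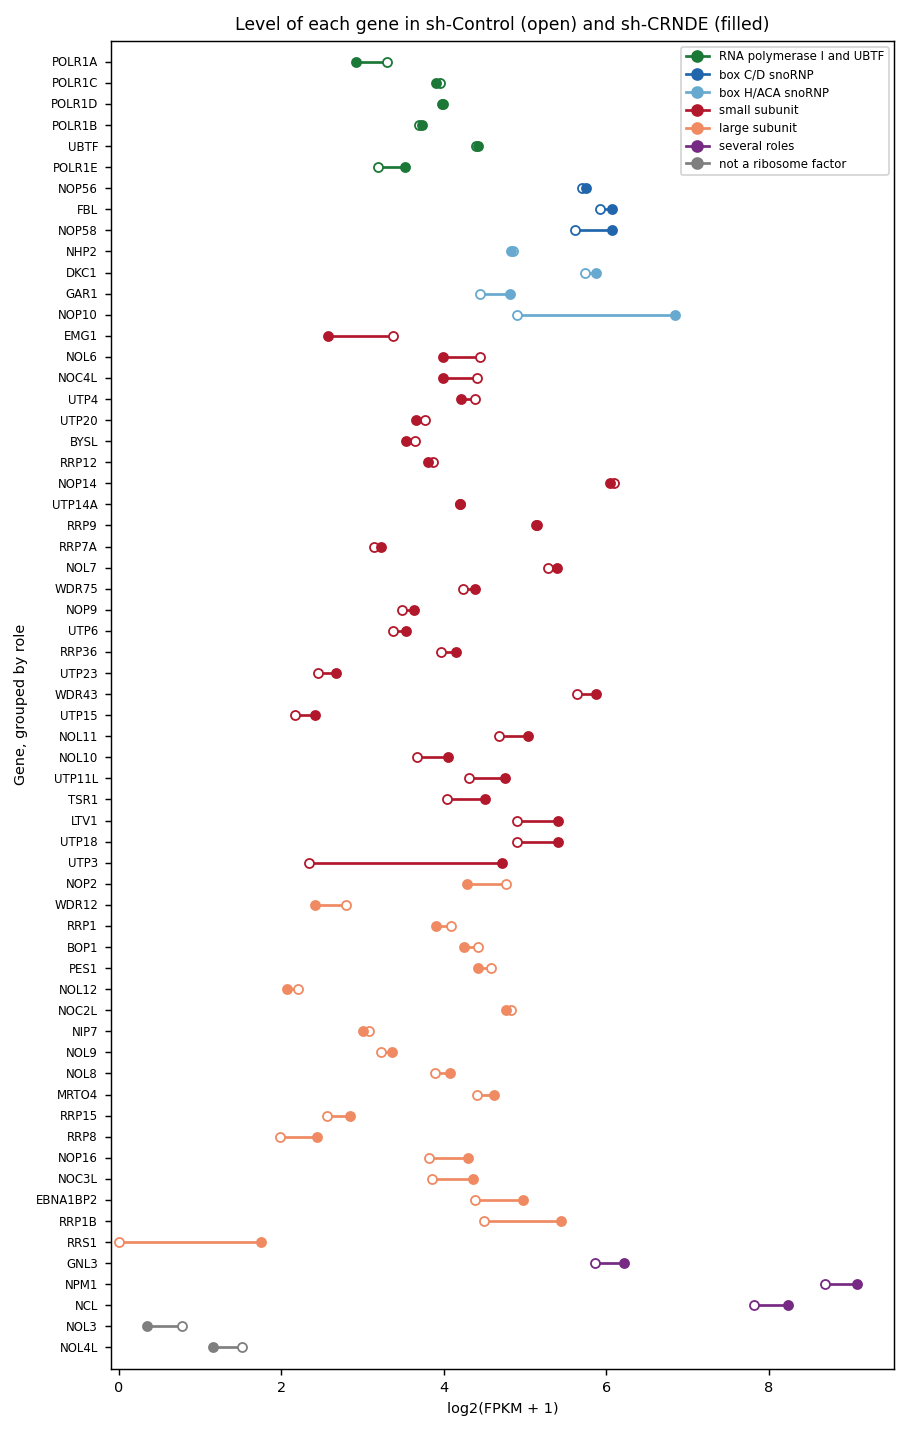
Level of each of the 62 members in sh-Control (open circles) and sh-CRNDE (filled circles) on a log2(FPKM + 1) axis, 1 library per group, with genes grouped by role and ordered by change within each role. Most pairs lie close together. UTP3, NOP10 and RRS1 have the longest lines to the right, RRS1 starting from 0, and EMG1 the longest line to the left.

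Small subunit factors spread on both sides of 0, with 17 of 26 higher in sh-CRNDE and a median change of 0.14. UTP3, a factor of the small subunit processome, rose from 4.09 to 25.3 FPKM, a change of 2.37 and a ratio of 6.19. EMG1, which encodes a pseudouridine methyltransferase of the small subunit rRNA, fell from 9.42 to 4.95 FPKM, a change of -0.81. Among the 26 small subunit members, only these 2 were past 1.5-fold. This was 3.85% in each direction, where 8.38% of all genes rose and 8.83% fell. UTP3 (chr4:70688532-70690551, plus strand) has a single exon. Of 106 single-exon protein-coding genes that averaged 1 FPKM or more, 25.5% rose and 17.9% fell, and 29 were listed at 0 in a library. The part of this in the UTP3 result was not tested. EMG1 (chr12:6970913-6979936, plus strand, 6 exons) shares 1506 exon bases with LPCAT3 on the opposite strand, and the library kit does not mark strand. EMG1 also shares 624 exon bases with an unlisted gene on its own strand. LPCAT3 was at 6.60 and 5.98 FPKM, a change of -0.12.

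Just short of 1.5-fold were UTP18, a member of the UTP-B complex, with a change of 0.51 (28.9 and 41.6 FPKM), and LTV1, an export factor, with 0.50 (28.9 and 41.3 FPKM). TSR1, a late assembly factor, followed with 0.47 (15.5 and 21.8 FPKM). At the other end were NOL6 (-0.46, 20.9 and 14.9 FPKM) and NOC4L (-0.42, 20.3 and 14.95 FPKM), a partner of NOP14. In contrast to NOC4L, NOP14 was one of the most abundant small subunit genes and close to level, at 67.3 and 65.3 FPKM, a change of -0.04. The median pair of the group was WDR75 and NOP9, each with a change of 0.14. NOL6 and NOC4L have GC contents of 57.6% and 64.2%, and after subtraction of the GC trend their changes were -0.28 and -0.07.

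The UTP-A complex, which links the early precursor to its transcription, was compared over all 6 of its looked-up genes. NOL11 (0.36), UTP15 (0.25), WDR43 (0.24) and WDR75 (0.14) were higher in sh-CRNDE, and UTP4 (-0.17) and HEATR1 (-0.09) lower, so the complex had no common direction. After subtraction of the GC trend, the changes were 0.20 for NOL11, 0.09 for UTP15, 0.08 for WDR43, -0.03 for WDR75 and -0.22 for UTP4. Levels differed widely within it, from 3.49 FPKM for UTP15 to 48.7 FPKM for WDR43 in sh-Control. In UTP-B, the changes of 6 genes ran from -0.40 to 0.51, with 4 higher. Of 35 further small subunit factors that were listed, 22 were higher in sh-CRNDE, with a median of 0.07. Of that list 4 genes (11.4%) rose and no gene fell, where 8.38% and 8.83% of all genes did. AATF rose from 8.05 to 24.0 FPKM, a change of 1.47. ESF1 (17.5 and 28.4 FPKM, a change of 0.66) and TSR3 (7.56 and 12.5 FPKM, 0.65) also rose, and BCCIP (18.9 and 28.9 FPKM, 0.59) was just past the threshold. AATF acts in a complex with NGDN and the member NOL10, whose changes were 0.12 and 0.38.

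Large subunit factors were also mixed, with 10 of 18 higher in sh-CRNDE and a median change of 0.16. Of the 18, 3 (16.7%) rose and none fell, where 8.38% and 8.83% of all genes did. RRP1B (chr21:43659560-43696079, plus strand, GRCh38, 16 exons) rose. Its level was 21.6 FPKM in the control and 42.6 FPKM after knockdown, which is a change of 0.95. Its paralog RRP1 lies 93433 bases away on chromosome 21 and went from 16.0 to 14.0 FPKM, a change of -0.19 (0.00 after subtraction of the GC trend). RRP1B was thus at 1.35 times the level of RRP1 in sh-Control and at 3.05 times that level in sh-CRNDE. EBNA1BP2 rose from 19.8 to 30.4 FPKM, and its change of 0.590 was the nearest to the threshold of the members past it. After subtraction of the GC trend it was 0.573 and under the threshold. RRS1, a factor of the early large subunit particle, was listed at 0 and at 2.37 FPKM, so no fold is given. RRS1 has a single exon, like UTP3, and without both genes 3 members rose and the median change of the members was 0.13.

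The 3 genes of the PeBoW complex, which is needed for processing of the large subunit rRNA, were all lower in sh-CRNDE, and none was past 1.5-fold. PES1 was at 23.0 and 20.4 FPKM, a change of -0.16. BOP1 was at 20.4 and 17.99 FPKM, a change of -0.17, and WDR12 at 5.98 and 4.32 FPKM, a change of -0.39. BOP1 and PES1 have GC contents of 65.6% and 57.9%, and after subtraction of the GC trend their changes were 0.20 and 0.02, while that of WDR12, at 39.6% GC, was -0.54. The complex therefore had a common direction only before that subtraction. The NOC genes, whose proteins act in paired complexes, differed, with changes of 0.51 for NOC3L, 0.36 for CEBPZ (the human counterpart of yeast Noc1, and no member), -0.07 for NOC2L (0.11 after subtraction of the GC trend) and -0.42 for NOC4L. NOP2, an rRNA cytosine methyltransferase, had the lowest change of the 18 large subunit members, -0.49. It was the member just short of falling, at 26.3 and 18.5 FPKM, and shares 2538 exon bases with an unlisted gene on the same strand. After subtraction of the GC trend the change of NOP2 was -0.40, and that of WDR12 was lower. NOL9, a polynucleotide kinase of rRNA processing (0.13), and NOL8 (0.19) stood in the middle of the group.

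Of 43 further large subunit factors, 29 were higher in sh-CRNDE, with a median of 0.16. Of these genes 3 (6.98%) rose, a share below that of all genes (8.38%), and none fell. They were SURF6 (4.65 and 11.5 FPKM, a change of 1.14), GTPBP4 (19.5 and 32.9 FPKM, 0.73) and ZNF622 (20.0 and 32.5 FPKM, 0.67). GTPBP4 and ZNF622 act in the maturation of the large subunit in the nucleus and the cytoplasm. Genes of the RNA exosome and of RNase MRP and RNase P gave no common direction. Of 14 RNA exosome genes, 9 were higher, with a median of 0.17. EXOSC5 fell from 12.3 to 7.68 FPKM, a change of -0.62, and EXOSC6, a gene of a single exon, was listed at 0 and at 9.94 FPKM. Of 10 genes of RNase MRP and RNase P, 7 were lower, with a median of -0.10. POP7 fell from 37.1 to 5.30 FPKM, a change of -2.59, and POP1 rose from 4.37 to 7.44 FPKM, a change of 0.65. In each direction 1 exosome gene (7.14%) and 1 RNase gene (10.0%) were past 1.5-fold. Over all 119 listed genes of these lists, 63.0% were higher in sh-CRNDE with a median of 0.11, 9 (7.56%) rose and 3 (2.52%) fell. The share that rose was near that of all genes (8.38%), and the share that fell was below it (8.83%).

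**Figure D5:**
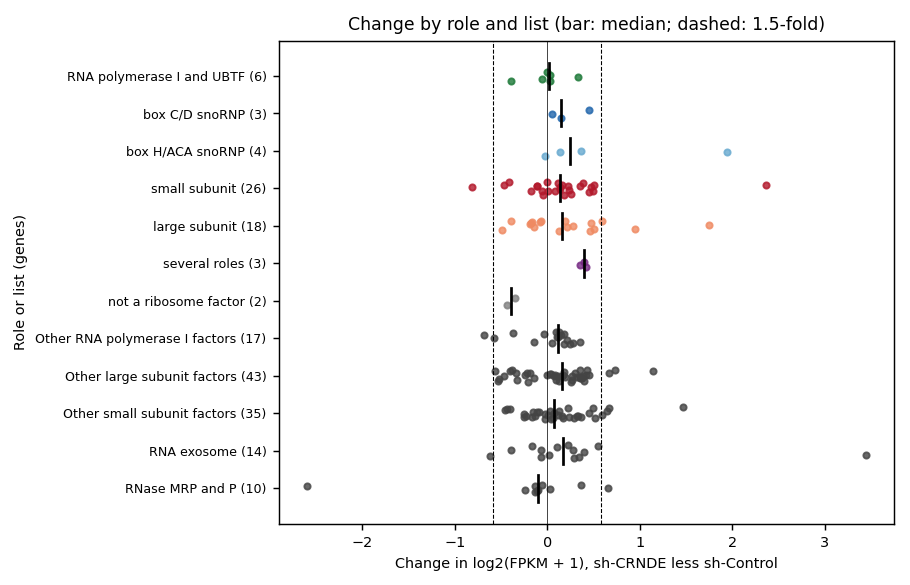
Change in log2(FPKM + 1) (horizontal axis) of each gene, by role of the 62 members (coloured) and by list of further pathway genes (dark grey), with the number of genes in brackets. Bars are medians and dashed lines mark 1.5-fold. Medians lie between -0.10 and 0.40 in all groups except the pair of name matches (-0.39), and the points farthest out are EXOSC6 (3.45) and RRS1, both listed at 0 in sh-Control, UTP3, NOP10 and POP7 (-2.59).

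Several members carry snoRNA genes in their introns, which ties the proteins of the pathway to its guide RNAs. In the GENCODE annotation 8 members host 26 snoRNA genes: DKC1, GNL3, NCL, NOL11, NOP56, NOP58, TSR1 and WDR43. All 8 hosts were higher in sh-CRNDE, with changes from 0.05 for NOP56 to 0.47 for TSR1 and a median of 0.36, against 0.10 for the 54 other members. After subtraction of the GC trend all 8 were still above 0, and the medians were 0.22 and 0.09. None of the hosts was past 1.5-fold. Their median GC content was 44.2%, against 49.7% for the other members, and their median level in sh-Control was 49.9 FPKM, against 14.6 FPKM. Spearman's rho between log2(mean FPKM + 1) and the change was 0.30 across the 62 members and 0.07 across the annotated expressed genes. The part of level in the result for the hosts was not tested. Of the 26 snoRNAs, 9 were listed, all between 0.443 and 4.10 FPKM. In sh-CRNDE 4 of them were higher, as their hosts were, and 5 were lower, so these snoRNAs had no common direction. Of the 9, 1 rose and 3 fell, where 8.38% of all genes rose and 8.83% fell. Within NOP58, SNORD70B (listed under the symbol SNORD70) rose from 1.87 to 4.10 FPKM, a change of 0.83. Within NOP56, SNORA51 fell from 3.04 to 1.39 FPKM, a change of -0.76. Within GNL3, SNORD19 fell from 2.64 to 0.955 FPKM (-0.90) and SNORD19C from 3.55 to 1.74 FPKM (-0.73). The listed snoRNAs are short, and their values are given as deposited. Whether values this low reflect the levels of the guide RNAs was not tested.

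The name matches that are not known as ribosome factors were both lowly expressed. NOL3 was at 0.717 and 0.267 FPKM, a change of -0.44, and NOL4L at 1.86 and 1.24 FPKM, a change of -0.35. Without them, 39 of 60 members were higher in sh-CRNDE, and the median change was 0.14.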

How the data were processed

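RNA of NB4 cells was sequenced in 2 libraries, 1 of sh-CRNDE and 1 of sh-Control cells. According to the submitters' processing notes, the authors used fastp 0.20.0, HISAT2 2.0.4, StringTie 1.2.3 and GRCh38, and deposited FPKM values per gene. The annotation release is not given in the sources used here. Every listed gene is above 0.5 FPKM in a library.

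From the deposited FPKM, log2(FPKM + 1) was taken without further scaling and without a filter. A difference past 1.5-fold, the study's threshold, was called. With 1 library per group no test was run. Members and lists were chosen with earlier results of these data known. Named were CRNDE, members past 1.5-fold, members of small roles, the highest, middle and lowest of large roles, and genes of the further lists past 1.5-fold (at most the 3 highest and 3 lowest of each list). Other genes were chosen after their values were seen.

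GENCODE release 44 (GRCh38) gave coordinates, exons and GC content for 11508 of 11619 identifiers and for all 62 members. Promoter windows are from RefSeq (GRCh38.p14). Alternatives were other pseudocounts, scalings, filters, a threshold of 2-fold and subtraction of a running median over 301 genes of similar GC content. The calls were tested on simulated data with planted shifts, which checks the code and not the error of these libraries. Python 3.11.15, numpy 2.4.6, pandas 2.3.3 and matplotlib 3.10.9 were used.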

Additional observations from a re-analysis of the deposited data

How the results depend on the processing

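With 1 library per group no replicate could be left out, and no interval could be given. No paired analysis was possible because each group has 1 library and no test was run. The members' median change stayed between 0.11 and 0.15, and 37 to 45 members were higher in sh-CRNDE, under all scalings, pseudocounts and filters tried. Scaling to the full sums of 141217 and 170373 FPKM, the latter with MT-RNR2, was not among them. It would lower the sh-CRNDE values against those of sh-Control. The number of members that rose was 3 at a threshold of 2-fold, and 3 without RRS1 and UTP3, which was added after seeing the data. The number that fell was 2 with a pseudocount of 0.1 or 0.01 or after rescaling to an equal sum, since NOL3 then passed the threshold (-1.15, -1.39 and -1.08), and 0 at 2-fold. Over all genes, 1580 rose and 1721 fell with a pseudocount of 0.1, 1653 and 1828 with 0.01, 1466 and 1667 after rescaling, 585 and 654 where 1 FPKM was required in each library, and 399 and 375 at 2-fold, against 974 and 1026. After GC subtraction the median of the box C/D genes was 0.31, that of NPM1, NCL and GNL3 was 0.29 and that of the name matches was -0.21. The median of the name matches was -0.85 and -0.98 with the smaller pseudocounts and -0.81 after rescaling. The change of RRP8 was 0.59 with a pseudocount of 0.01, past the threshold.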
